A study of Mus musculus with 8 samples.

Results

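Endothelial cells sorted from the glomeruli of Emcn knockout mice were compared with the same cells of wild-type mice, in 4 of the 8 RNA-seq libraries of the study. The 2 wild-type libraries carried the genotype EMCN+/+ and the 2 knockout libraries the genotype EMCN-/-, and each pair held the replicates numbered 2 and 3. The other 4 libraries came from podocytes sorted from mice of both genotypes. Age, sex and strain of the mice, the way the allele was made, the sorting markers and whether animals were pooled are not given in the sources used here, so p-values measure the spread between these libraries, which may be technical. The genes described are those in which both knockout endothelium libraries lay on one side of both wild-type ones, called separated here. They were 7337 of the 16477 genes tested (44.5%), with 4092 higher (24.8%) and 3245 lower (19.7%) in knockout.

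Emcn encodes endomucin, a transmembrane sialomucin that venous and capillary endothelium displays as part of its glycocalyx, the sugar-rich coat facing the blood. Glomerular endothelium is fenestrated and forms the first layer of the filtration barrier, beneath which lie the shared basement membrane and the podocytes. Podocytes supply it with VEGF-A, whose receptor Kdr the endothelium carries. Endomucin is known from cultured endothelium to limit leukocyte adhesion and to take part in VEGF receptor endocytosis. The lists of genes below cover these functions and, beside them, stress, metabolism and growth.

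Levels are given as CPM, read counts scaled to library size with the TMM method (trimmed mean of M-values), with replicate 2 before replicate 3 in each group. CPM is not corrected for gene length, so levels are compared between libraries and not between genes. A log2 fold change is knockout over wild type and is given with its standard error (SE) from the edgeR fit, with n = 2 libraries per group. Total counts of the endothelium libraries were 12378716 and 16540070 in wild type and 11146545 and 10478956 in knockout. Mitochondrially encoded genes took 13.3% and 26.2% of these totals in wild type, against 10.1% and 19.6% in knockout. Wild-type replicate 3 stood apart on the second principal component, at 45.8 against -28.3 to 17.8 for the other libraries, so values without it are given where they change a result.

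The sorted cells carried their lineage markers in both genotypes. The summed level of 17 endothelial markers, with Emcn left out, was 13017 and 11184 CPM in wild type and 14805 and 11925 CPM in knockout, and the groups overlapped. Of the 17, 15 had a positive log2 fold change with a median of 0.22. Among the 17, 4 were separated and higher and 0 lower, where all genes gave 24.8% and 19.7%. With Emcn in the list the median was 0.21, and it moved to 0.09 without wild-type replicate 3 and to -0.02 without knockout replicate 2. Pecam1, the junctional adhesion molecule CD31, stood at 1014 and 769 CPM in wild type and 1039 and 779 CPM in knockout, and its groups overlapped. Kdr, the main VEGF receptor, stood at 1673 and 1295 CPM in wild type and 1666 and 1498 CPM in knockout, and its groups overlapped too. Cdh5, the adherens junction protein VE-cadherin, was separated, with 49.3 and 43.1 CPM in wild type and 63.9 and 51.4 CPM in knockout and a log2 fold change of 0.32 ± 0.31. Ehd3, an endocytic ATPase known as a glomerular endothelial marker, stood at 3224 and 2815 CPM in wild type and 2918 and 3146 CPM in knockout.

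Markers of other kidney cells were also present and were not even between the libraries. Podocyte markers (18 genes) summed to 3639 and 2063 CPM in wild-type endothelium and 2505 and 2404 CPM in knockout endothelium, against 13388 to 27634 CPM in the podocyte libraries. Distal tubule markers (14 genes) summed to 14043 and 27639 CPM in wild type and 5039 and 13875 CPM in knockout. Of the 14, 4 were separated and all 4 were lower (28.6%), where 28.1% of all genes with a mean of 5 CPM or more were lower. The median log2 fold change of the 14 was -1.13, or -0.33 without wild-type replicate 3. Umod, which encodes the urinary protein of the thick ascending limb, made up part of this sum, with 3716 and 9554 CPM in wild type and 1317 and 3611 CPM in knockout. Proximal tubule markers (11 genes) summed to 352 and 581 CPM in wild type and 269 and 350.3 CPM in knockout. Immune markers (18 genes) summed to at most 116 CPM in any of the 4 libraries, and of the 15 tested 4 were separated and higher and 1 lower. Mural and mesangial markers (14 genes tested) summed to 1117 and 723 CPM in wild type and 968 and 573 CPM in knockout, with 5 separated and higher and 1 lower. Over all genes 24.8% were separated and higher and 19.7% separated and lower. In bulk samples, fewer cells of a type and less RNA per cell cannot be told apart. The parts of tubular and podocyte RNA in the results below were not tested.

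**Figure D1:**
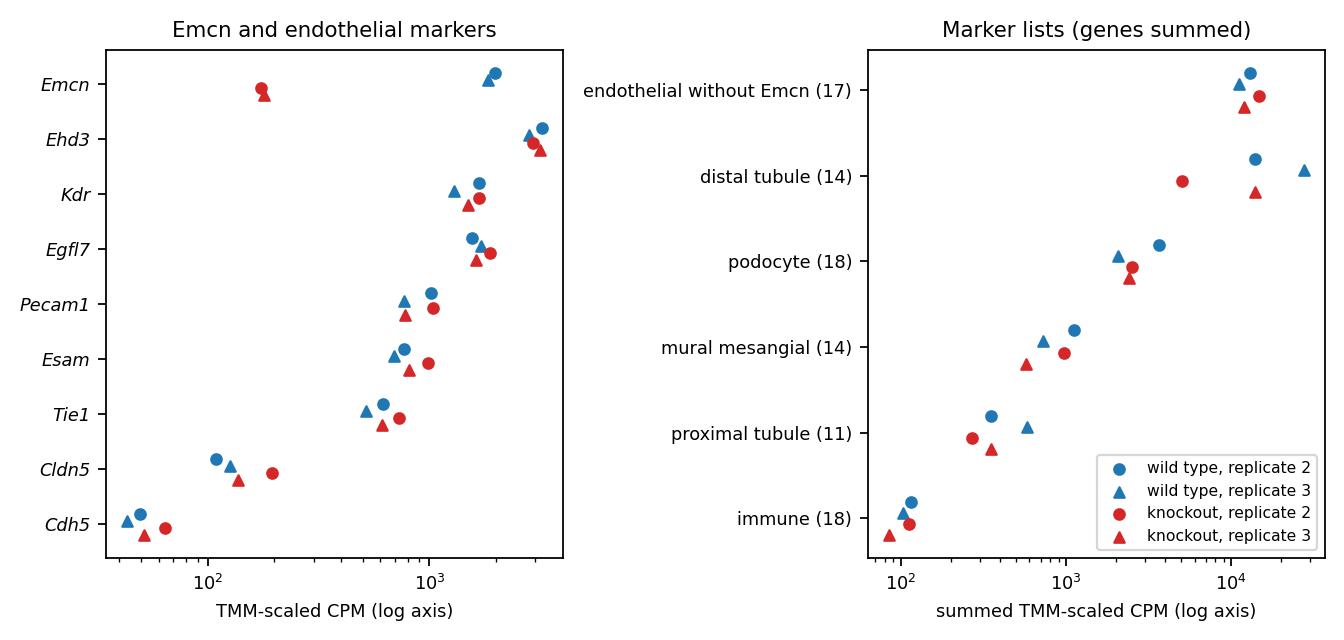
TMM-scaled CPM (log axes) of Emcn and 8 endothelial markers (left) and summed CPM of 6 marker lists with the number of genes summed (right), where each point is 1 endothelium library (blue wild type, red knockout; circle replicate 2, triangle replicate 3). Emcn is the gene whose knockout points, at 173 and 179 CPM, lie far below wild type. Endothelial markers without Emcn lie between 11184 and 14805 CPM in the 4 endothelium libraries, and distal tubule markers between 5039 and 27639 CPM.

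Emcn itself fell in the knockout endothelium. It stood at 1972 and 1828 CPM in wild type and 173 and 179 CPM in knockout, so the knockout mean (176 ± 3.93 CPM, SD, n = 2) was 9.27% of the wild-type mean (1900.2 ± 102 CPM, SD, n = 2). The log2 fold change was -3.43 ± 0.35 (SE; edgeR quasi-likelihood test, Benjamini-Hochberg adjusted p = 0.0205). In podocyte libraries the level was lower throughout, with 74.1 and 35.9 CPM in wild type and 5.59 and 4.94 CPM in knockout. Emcn counts in the knockout libraries were therefore not at 0 in either cell type, and which exons they came from cannot be read from counts per gene. Leaving out 1 library at a time kept log2 fold changes of -3.49 to -3.38, but the adjusted p was then 0.0838 to 0.191, so the call needed all 4 endothelium libraries. RefSeq places Emcn on chromosome 3 from 137341062 to 137431069 (GRCm38.p6, the assembly of the mm10 build that the submitters' processing notes name).

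Emcn was the only gene that passed an adjusted p of 0.05 (0.00607% of the genes tested), and the next smallest adjusted p was 0.716. Before adjustment, 905 genes (5.49%) had a p under 0.05, 430 of them higher and 475 lower. All other genes below are therefore described by their levels in the 4 libraries, with no claim that they passed the test. An exact permutation test on 1 gene with 2 libraries against 2 cannot give a p under 0.333. At the edge of the rule, Marchf2 was just inside, with nearest libraries of 132 and 148 CPM in wild type against 132 and 95.4 CPM in knockout, and Cdh3 was just outside, with 21.5 and 27.2 against 14.9 and 21.5 CPM.

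Direction went with level. Separated genes that were higher in knockout had a median level of 2.69 CPM over the endothelium libraries and a median log2 fold change of 0.94. Separated genes that were lower had a median level of 42.8 CPM and a median log2 fold change of -0.40. When genes were grouped by their level in the 4 podocyte libraries, which the rule did not use, 44.5% of the 2647 genes under 1 CPM were higher and 4.23% lower. Of the 2006 genes at 100 CPM or more, 1.65% were higher and 46.9% lower, but scaled by total count alone 13.3% were higher and 7.83% lower. The median log2 fold change passed from 0.78 in the lowest class to -0.27 in the highest, and from 0.47 to -0.25 without wild-type replicate 3. Podocyte libraries showed the same order within themselves, with 22.7% higher and 7.52% lower in the lowest class and 2.39% higher and 38.3% lower in the highest, but there the classes were made from the libraries compared. By gene type, 39.8% of 1296 lncRNA genes were higher and 9.26% lower, against 22.3% and 21.6% of 13788 protein-coding genes.

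The split between higher and lower depended on the scaling. With the TMM scale, 55.8% of separated genes were higher, and the median log2 fold change of all genes was 0.01. Scaling by total count alone put that median at 0.33, with 6416 genes higher and 726 lower, so that 89.8% of the separated genes were higher. A gap of at least 1.5-fold between the nearest libraries of the groups was reached by 827 higher and 99 lower genes. Among the 10060 genes with a mean of 5 CPM or more, 1336 (13.3%) were higher and 2829 (28.1%) lower on the scale of all genes. Among the 10138 genes with a mean of at least 5 CPM over all 8 libraries, 1315 were higher and 2866 lower on that scale. When the TMM factors were estimated from these 10138 genes alone, 2149 of them were higher and 1378 lower, so the balance depended on the scaling here too.

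**Figure D2:**
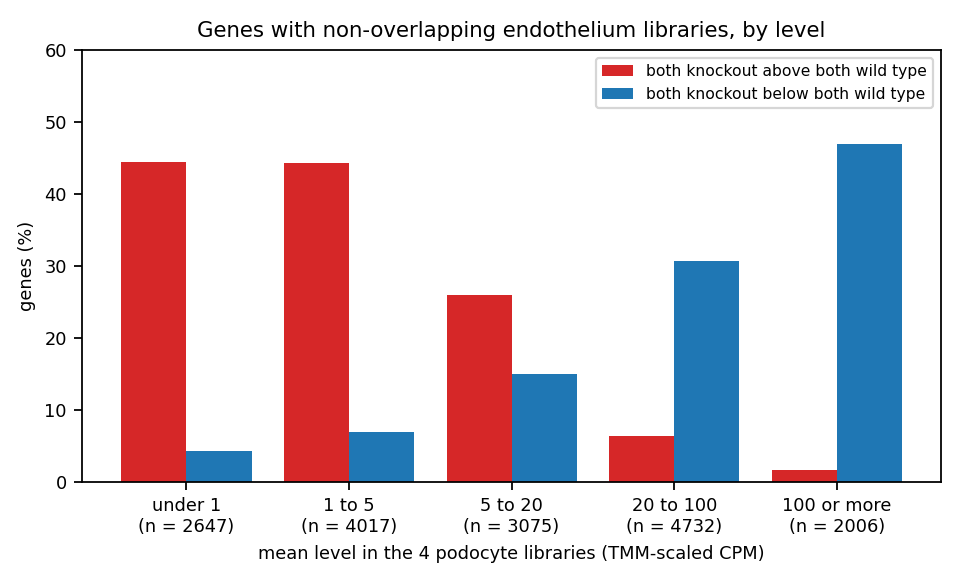
Share of tested genes (%, vertical axis) in which both knockout endothelium libraries lay above (red) or below (blue) both wild-type ones, by mean level in the 4 podocyte libraries. The red share goes from 44.5% in the lowest class to 1.65% in the highest, and the blue share from 4.23% to 46.9%; scaled by total count alone, the highest class held 13.3% above and 7.83% below.

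The 12 genes with the widest gap above wild type, among those with a mean of at least 5 CPM, were low in level. Il1rl1, the receptor for interleukin 33, stood at 4.26 and 3.47 CPM in wild type and 11.8 and 11 CPM in knockout. Zbp1, a sensor of left-handed nucleic acids, stood at 2.51 and 2.61 CPM in wild type and 8.6 and 6.97 CPM in knockout. Muc4, a transmembrane mucin, stood at 4.18 and 2.97 CPM in wild type and 9.8 and 11.4 CPM in knockout, and its log2 fold change was 1.57 ± 0.54. In each of the 3, both knockout libraries exceeded the higher wild-type library by over 2-fold, which restates how they were chosen. Of the 12, only Csmd2 and Aox3 had a wild-type mean of 5 CPM or more (6.18 and 8.46 CPM). The others passed that filter only through knockout. Mmrn1, which encodes multimerin 1 of platelets and endothelium, gave 3.57 and 0.869 CPM in wild type and 11.4 and 11.8 CPM in knockout. Its podocyte libraries held at most 0.811 CPM. Red cell and platelet markers were higher in the same libraries, with sums over 5 genes of 8.97 and 10.8 CPM in wild type and 27.2 and 12.7 CPM in knockout. Of the 4 tested, 3 were separated and all 3 were higher, where 24.8% of all genes were higher, and 44.5% of those under 1 CPM in podocytes. Among the 3 was the platelet chemokine Ppbp, at 0.532 and 0.724 CPM in wild type and 3.53 and 1.72 CPM in knockout. The part of these markers in the Mmrn1 result was not tested. Gldc, the decarboxylase of the glycine cleavage system, gave 3.5 and 2.97 CPM in wild type and 8.18 and 9.03 CPM in knockout, and Aox3, an aldehyde oxidase, gave 10.5 and 6.44 CPM in wild type and 21.9 and 23.4 CPM in knockout. Elobl, Csmd2, Plb1, Lrrc7 and the lncRNAs 4930563F08Rik and 1700047G03Rik completed the 12. Their log2 fold changes ran from 1.28 (1700047G03Rik) to 1.87 (4930563F08Rik).

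The 12 genes with the widest gap below wild type, by the same rule, included Emcn. Bmp7, a bone morphogenetic protein made by nephron progenitors, podocytes and distal tubule, stood at 35.2 and 37.4 CPM in wild type and 12.7 and 15.3 CPM in knockout. Its log2 fold change of -1.38 ± 0.23 had the smallest p before adjustment after Emcn among the 12, and its adjusted p in the edgeR test was 0.716. Hoxd9, a homeobox factor, stood at 32.7 and 38.9 CPM in wild type and 15.6 and 14.6 CPM in knockout, and its podocyte groups overlapped. Nrtn, a ligand of the GDNF family, gave 10.3 and 10.9 CPM in wild type and 4.37 and 0.86 CPM in knockout. Dusp10, a phosphatase of the stress kinases p38 and JNK, gave 7.98 and 7.74 CPM in wild type and 3.38 and 2.49 CPM in knockout and was also separated and lower in podocytes, with 30.1 and 27.4 CPM in wild type and 17.5 and 14 CPM in knockout.

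Tesc, a calcium-binding regulator of a sodium-proton exchanger, stood at 51.6 and 84 CPM in wild type and 18.7 and 25.3 CPM in knockout, and Macrod1, a mono-ADP-ribose hydrolase, at 15.5 and 12.7 CPM in wild type and 5.92 and 4.9 CPM in knockout. The chemokine Ccl2 gave 8.66 and 7.31 CPM in wild type and 3.53 and 1.72 CPM in knockout, and the AP-1 subunit Jund gave 41.5 and 38.9 CPM in wild type and 11.1 and 19.3 CPM in knockout. In podocytes both varied by replicate number, Jund with 354 and 66.4 CPM in wild type and 372 and 43.4 CPM in knockout and Ccl2 with 31.2 and 6.97 CPM in wild type and 37.8 and 9.59 CPM in knockout. The lncRNA G530011O06Rik stood at 20.6 and 18.7 CPM in wild type and 6.2 and 5.59 CPM in knockout and was lower in podocytes as well, with 9.79 and 16.6 CPM in wild type and 2.42 and 4.5 CPM in knockout. Iqcn was also among the 12, at 8.28 and 7.67 CPM in wild type and 3.03 and 3.18 CPM in knockout. All 12 stayed below wild type when libraries were scaled by total count alone.

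**Figure D3:**
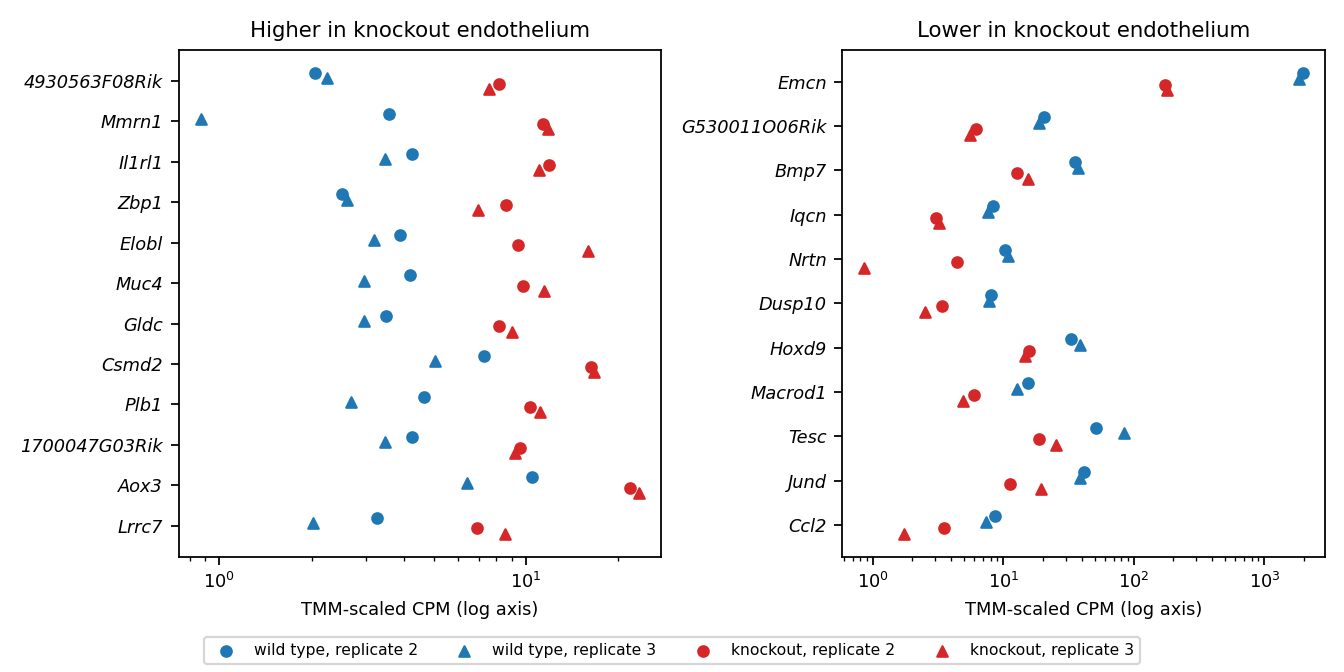
TMM-scaled CPM (log axis) of the genes with the widest gap in each direction, with 1 point per endothelium library. The knockout points of Mmrn1 lie at 11.4 and 11.8 CPM against 3.57 and 0.869 CPM in wild type, and those of Bmp7 at 12.7 and 15.3 CPM against 35.2 and 37.4 CPM.

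DESeq2's Wald test on the same counts passed 10 genes at an adjusted p of 0.05, of which 2 were higher and 8 lower. Esm1 and Lypd2 were the 2 higher ones. The lower ones, beside Emcn, were Bmp7, Tesc, G530011O06Rik, Lif, Chka, Dnaja4 and Rnf128. Lif encodes a cytokine of the interleukin 6 family and stood at 3.42 and 20.8 CPM in wild type and 1.62 and 2.49 CPM in knockout. Chka, a choline kinase of phosphatidylcholine synthesis, stood at 87.5 and 219 CPM in wild type and 38.1 and 51.2 CPM in knockout. Lypd2 was close to 0 in wild type, with 0.304 and 0 CPM in wild type and 2.4 and 3.35 CPM in knockout. Apart from Emcn, none of the 10 passed the edgeR test.

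The gene lists below are described by counts of separated members. On the TMM scale 24.8% of all genes were higher and 19.7% lower, while of those with a mean endothelial level of 5 CPM or more 13.3% were higher and 28.1% lower. When scaled by total count alone, 38.9% of all genes were higher and 4.41% lower. That scaling changes 1 factor per library and so shifts all genes nearly alike. Relative to the median of all genes, list medians therefore could hardly move (at most 0.05 on the log2 scale), which is no check of the lists. Leaving out 1 library turned the sign of the median in 12 of the 27 lists.

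Among the glycocalyx genes (46 tested of 51 listed, with core proteins, synthesis and shedding enzymes), 13 were higher and 8 lower (16 and 1 when scaled by total count alone), where all genes gave 24.8% and 19.7%. Emcn was 1 of the 8, and without it 13 were higher and 7 lower of 45, and the median log2 fold change was 0.02. Of the core proteins, the glypicans Gpc1 and Gpc3, heparan sulfate proteoglycans anchored in the membrane by a lipid, were lower. Gpc1 stood at 37 and 23.8 CPM in wild type and 17.5 and 18.5 CPM in knockout, and Gpc3 at 159 and 117 CPM in wild type and 90.1 and 73.6 CPM in knockout. In podocytes Gpc1 stood at 330 and 216 CPM in wild type and 148 and 200 CPM in knockout. The part of podocyte RNA in its endothelium values was not tested. Esm1, a dermatan sulfate proteoglycan secreted by endothelium under VEGF and known as a tip-cell marker, stood at 46.7 and 35.1 CPM in wild type and 228 and 71.8 CPM in knockout. Both knockout libraries of Esm1 were higher, but they differed from each other by more than the wild-type ones did. Cd44, the hyaluronan receptor, gave 15.4 and 9.19 CPM in wild type and 22.5 and 26.3 CPM in knockout, and Hspg2, which encodes perlecan, gave 50.2 and 46.4 CPM in wild type and 82.3 and 65 CPM in knockout. Syndecan 4 (Sdc4) gave 528 and 612 CPM in wild type and 248 and 484 CPM in knockout. The sialomucins related to endomucin by type overlapped between the groups: Podxl stood at 1062 and 753 CPM in wild type and 852 and 943 CPM in knockout, and Cd34 at 739 and 639 CPM in wild type and 880.4 and 575 CPM in knockout. Among 16 genes of mucin-type O-glycosylation, 2 were higher and 3 lower (6 and 2 when scaled by total count alone), with Galnt3, a transferase that starts O-glycans, at 10.1 and 15.6 CPM in wild type and 5.22 and 6.19 CPM in knockout.

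VEGF signalling and tip-cell genes (27 tested of 31) held 6 higher and 3 lower members (9 and 1 when scaled by total count alone), or 22.2% and 11.1%, where all genes gave 24.8% and 19.7%. The median log2 fold change was 0.36. Leaving out 1 library moved that median to between -0.02 (without knockout replicate 2) and 0.58 (without knockout replicate 3), and it was 0.10 without wild-type replicate 3. Of the ligands, Vegfa stood at 167 and 141 CPM in wild type and 116 and 105 CPM in knockout and Vegfb at 18.7 and 33.7 CPM in wild type and 9.59 and 17.3 CPM in knockout, both lower in knockout. Vegfa was also separated and lower in the podocyte libraries, with 1410 and 1012 CPM in wild type and 658 and 787 CPM in knockout. The endothelium libraries held podocyte markers, as given above, and the part of podocyte RNA in their Vegfa values was not tested. The receptor Kdr overlapped, as given above, and Flt4, the receptor for VEGF-C, was higher at 58.7 and 43.4 CPM in wild type and 91.1 and 65.3 CPM in knockout. Among targets and tip-cell genes, Igfbp3 stood at 17.4 and 17.3 CPM in wild type and 48.3 and 23.5 CPM in knockout, and the semaphorin receptor Plxnd1 at 28.6 and 24.2 CPM in wild type and 50.5 and 35.9 CPM in knockout. Adm, the vasodilator peptide adrenomedullin, was lower, with 88.4 and 72.5 CPM in wild type and 54.7 and 51.1 CPM in knockout, and it was lower in podocytes too, with 352 and 275 CPM in wild type and 159 and 157 CPM in knockout. Of 11 angiopoietin and Tie genes, none was higher and 4 were lower (2 and 2 when scaled by total count alone), while the receptor Tek stood at 769.9 and 585 CPM in wild type and 678 and 512 CPM in knockout and its groups overlapped. Of 25 Notch and arterial genes, 1 was higher and none lower (6 and 0 when scaled by total count alone), and the higher one was the ligand Efnb2 at 99.8 and 102 CPM in wild type and 141 and 128 CPM in knockout.

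Capillary identity genes (26 tested of 36) held 10 higher and 3 lower members (13 and 1 when scaled by total count alone), where all genes gave 24.8% and 19.7%. The median log2 fold change was 0.10, or -0.09 without wild-type replicate 3. Aqp1, the water channel of vasa recta and proximal tubule, stood at 126 and 221 CPM in wild type and 518 and 311 CPM in knockout, and in podocytes at 228 and 279 CPM in wild type and 1084 and 428 CPM in knockout. Cd36, a fatty acid translocase of capillaries, stood at 102 and 75.3 CPM in wild type and 237 and 132 CPM in knockout. The tight junction protein Cldn5 gave 109 and 126 CPM in wild type and 195 and 137 CPM in knockout, and Vwf, the von Willebrand factor of larger vessels, gave 49.3 and 46.8 CPM in wild type and 87.4 and 61.6 CPM in knockout. Igfbp7 was lower, with 359 and 159 CPM in wild type and 81 and 115 CPM in knockout, and varied by replicate number in podocytes, with 3495 and 888 CPM in wild type and 2731 and 525 CPM in knockout. Among 24 endothelial transcription factors, 3 were higher and 2 lower (8 and 0 when scaled by total count alone), with a median of 0.01. Sox18 was among the higher ones at 341 and 261 CPM in wild type and 416 and 343 CPM in knockout, and Epas1 overlapped at 715 and 551 CPM in wild type and 749.5 and 592 CPM in knockout.

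Junction genes (28 tested of 37) were split, with 6 higher and 7 lower members (9 and 4 when scaled by total count alone) and a median log2 fold change of 0.00. Cdh5, Cldn5 and Esam, which endothelium carries, were among the higher ones, and Esam stood at 768 and 692 CPM in wild type and 982 and 805 CPM in knockout. Pecam1, given above, and Jam2, also known from endothelium, overlapped, with Jam2 at 287 and 233 CPM in wild type and 289 and 144 CPM in knockout. The lower ones included Ocln and Marveld2, proteins of epithelial tight junctions, and Nectin2. Ocln stood at 60.1 and 89.8 CPM in wild type and 37.9 and 50.9 CPM in knockout, and Marveld2 at 25.8 and 25.1 CPM in wild type and 14 and 16.9 CPM in knockout. Nectin2 gave 114 and 178 CPM in wild type and 78.6 and 109 CPM in knockout. The distal tubule markers, given above, summed to 14043 and 27639 CPM in wild type and 5039 and 13875 CPM in knockout, and their part in these values was not tested.

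Leukocyte adhesion and chemokine genes (25 tested of 33) held 6 higher and 4 lower members, also when scaled by total count alone. These are 24% and 16%, where all genes gave 24.8% and 19.7%. Of the adhesion molecules, Icam2 stood at 419.6 and 424 CPM in wild type and 485 and 455 CPM in knockout, and its log2 fold change was 0.16 ± 0.23. Mcam stood at 112 and 103 CPM in wild type and 188 and 124 CPM in knockout. The chemokines Cxcl1, which draws neutrophils, and Cxcl10, which draws T cells, were lower. Cxcl1 stood at 15.2 and 24.4 CPM in wild type and 8.74 and 8.95 CPM in knockout, and Cxcl10 at 23.1 and 38.9 CPM in wild type and 15.7 and 16.7 CPM in knockout. In podocytes Cxcl10 was separated the other way, at 83.9 and 60.3 CPM in wild type and 105 and 93.2 CPM in knockout. Of 41 interferon-response genes, 6 were higher and 4 lower (12 and 1 when scaled by total count alone), with a median of 0.07. That median was -0.25 without knockout replicate 2 and 0.39 without knockout replicate 3. Rsad2, which encodes viperin, stood at 250.4 and 259.6 CPM in wild type and 388 and 288 CPM in knockout.

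Coagulation and vasoactive genes (28 tested of 38) included 4 higher and 7 lower members (7 and 2 when scaled by total count alone). Of the receptors, Tbxa2r, which binds thromboxane, stood at 70.1 and 74.6 CPM in wild type and 114 and 157 CPM in knockout, and Adora2a, which binds adenosine, at 19.4 and 18.4 CPM in wild type and 37.6 and 32.3 CPM in knockout. Tbxa2r was separated and lower in podocytes, with 41.5 and 33.4 CPM in wild type and 21.2 and 30.9 CPM in knockout. F3, tissue factor, was lower at 50.4 and 102 CPM in wild type and 26.4 and 40.2 CPM in knockout, and Ptgs2, the inducible cyclooxygenase, at 32.7 and 20.6 CPM in wild type and 15.5 and 17.3 CPM in knockout. Endocytosis and caveola genes (24 tested of 40) held 2 higher and 8 lower members (5 and 2 when scaled by total count alone), where 28.1% of all genes with a mean of 5 CPM or more were lower. Stab1, a scavenger receptor, was higher in endothelium, with 107 and 92.9 CPM in wild type and 193 and 122 CPM in knockout, and lower in podocytes, with 8.1 and 7.48 CPM in wild type and 4.29 and 3.69 CPM in knockout. Podocyte libraries also held endothelial markers, and the part of endothelial RNA in these podocyte values was not tested. Pacsin2, a membrane-bending protein of caveolae, was lower, with 477 and 491 CPM in wild type and 257 and 348 CPM in knockout, as was Cavin2, with 1030 and 877 CPM in wild type and 619.7 and 667 CPM in knockout.

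In the BMP and TGF-beta list (22 tested of 34), 4 genes were higher and 4 lower (9 and 1 when scaled by total count alone). Bmp6, a ligand of endothelium that controls hepcidin, was higher with 26.2 and 24.2 CPM in wild type and 51.4 and 41.2 CPM in knockout, opposite to Bmp7, and was higher in podocytes too, with 6.55 and 6.75 CPM in wild type and 17.1 and 9.81 CPM in knockout. Sphingosine-1-phosphate genes (16 tested of 19) held 2 higher and 5 lower members (2 and 2 when scaled by total count alone). The lipid phosphate phosphatase Plpp3 stood at 666 and 631 CPM in wild type and 801 and 827 CPM in knockout, and Sgpl1, the lyase that degrades the lipid, at 113 and 124 CPM in wild type and 67.3 and 88.7 CPM in knockout. The receptor S1pr1 stood at 423 and 363 CPM in wild type and 529.9 and 329.9 CPM in knockout. Basement membrane and matrix genes (32 tested of 46) held 4 higher and 3 lower members (5 and 1 when scaled by total count alone) with a median of 0.00. Lamb1, a laminin chain of immature basement membrane, stood at 148 and 214 CPM in wild type and 106 and 131 CPM in knockout, and Mmrn2, an extracellular matrix protein of endothelium, at 438 and 445 CPM in wild type and 701 and 528 CPM in knockout.

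**Figure D4:**
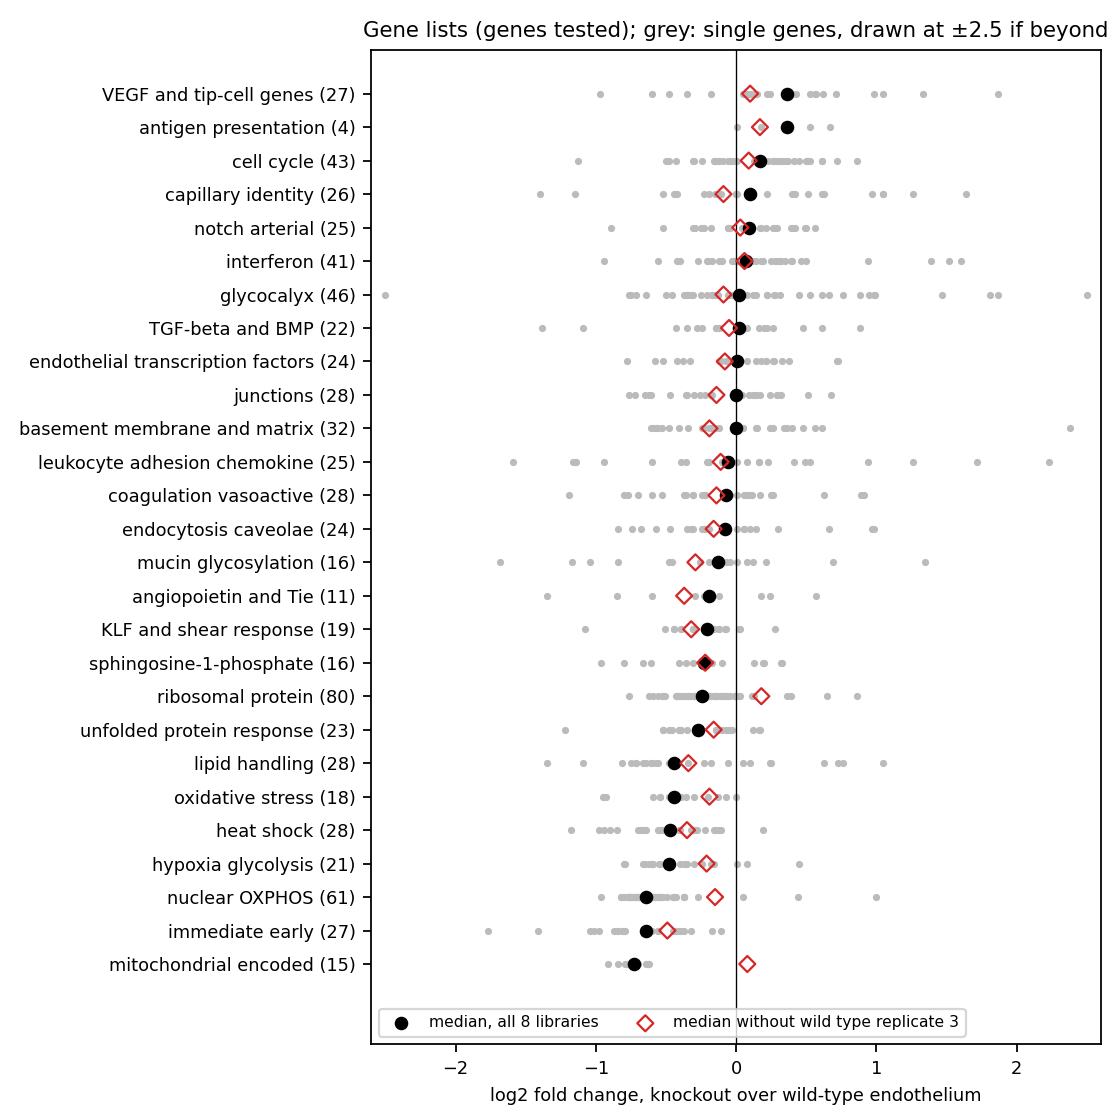
Log2 fold change (knockout over wild-type endothelium) of the genes of each function list, with the number of genes tested in brackets. Grey points are single genes, black circles the median with all 8 libraries and red diamonds the median without wild-type replicate 3: the circles of the immediate-early and heat shock genes lie at -0.64 and -0.47 with diamonds at -0.49 and -0.35, while those of the mitochondrially encoded genes lie at -0.73 and 0.08.

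Immediate-early genes encode transcription factors and regulators that are switched on within minutes of a stimulus. Of 33 listed, 27 were tested; 19 were lower and 0 higher, where all genes gave 19.7% lower, and 10 had an unadjusted p under 0.05. The median log2 fold change was -0.64, against 0.01 for all genes. Without wild-type replicate 3 it was -0.49, and scaled by total count alone it was -0.27, where the median of all genes was 0.33 and 13 members were lower and 0 higher. In podocytes the median of the same genes was -0.02. Their summed level was 17266 and 19017 CPM in wild type and 12455 and 12247 CPM in knockout. Fos, a subunit of AP-1, stood at 1717 and 2048 CPM in wild type and 1057 and 1052 CPM in knockout, and Fosb at 32 and 65.1 CPM in wild type and 20.4 and 27 CPM in knockout. Atf3, a stress-induced repressor, stood at 549.8 and 834 CPM in wild type and 303 and 383 CPM in knockout, and Egr1, a zinc finger factor, at 1530 and 1733 CPM in wild type and 1017 and 796 CPM in knockout. Socs3, a feedback inhibitor of cytokine signalling, gave 90.5 and 150.0 CPM in wild type and 55.2 and 66.5 CPM in knockout. Klf6, another zinc finger factor from the shear-response list, gave 719.7 and 874 CPM in wild type and 347 and 406 CPM in knockout, and its log2 fold change was -1.08 ± 0.27. Sgk1, a kinase induced by corticosteroids, overlapped at 2134 and 1563 CPM in wild type and 1561 and 1736 CPM in knockout, as did Ccn2 at 967 and 527 CPM in wild type and 685 and 437 CPM in knockout.

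Heat shock and chaperone genes (28 tested of 36) held 21 lower and 0 higher members, 9 of them with an unadjusted p under 0.05, and the median log2 fold change was -0.47. Without wild-type replicate 3 the median was -0.35, and in podocytes it was -0.28. Scaled by total count alone it was -0.14, where the median of all genes was 0.33, with 9 lower and 2 higher members. Their sum was 38576 and 44522 CPM in wild type and 23702 and 32548 CPM in knockout. Hspa1a, the inducible HSP70, stood at 11437 and 13395 CPM in wild type and 7078 and 10109 CPM in knockout, and its partner Dnajb1 at 1632 and 2094 CPM in wild type and 746 and 1144 CPM in knockout. Hsph1, a nucleotide exchange factor for HSP70, stood at 582 and 901 CPM in wild type and 257 and 395 CPM in knockout, with a log2 fold change of -1.18 ± 0.30. The co-chaperone Bag3 gave 294 and 396 CPM in wild type and 135 and 234 CPM in knockout. The mitochondrial chaperonin pair went apart by the rule but not in size: Hspd1 gave 204 and 266 CPM in wild type and 120.3 and 176 CPM in knockout, and Hspe1, whose groups overlapped, gave 121 and 191 CPM in wild type and 59.6 and 133 CPM in knockout. Among all genes at 100 CPM or more in podocytes, 46.9% were lower and the median was -0.27, but under scaling by total count alone 7.83% were lower and the median was 0.06. The distal tubule markers were lower in the same libraries, and their part in the counts of both lists was not tested.

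Heat shock genes are activated through heat shock elements, inverted repeats of nGAAn bound by the factor HSF1. Promoters of 250 bases before to 50 after the start (RefSeq, GRCm38.p6) were searched on both strands for 3 units in a row that alternate between TTC and GAA, with any 2 bases between units, and a promoter with overlapping matches was counted once. A gene counted if any of its promoters held a match. This was so for 4 of 24 heat shock genes (16.7%), 0 of 22 immediate-early genes and 74 of 12063 tested genes with a promoter (0.613%). Over all genes it was so for 179 of 27025 (0.662%), and of single promoters 198 of 32851 held a match (0.603%). The 4 are shown because they are the members in which the letters lie near the start, with the matched bases in capitals and each read 5′ to 3′ along its gene. Hspd1 and Hspe1 are divergent neighbours on chromosome 1, and the same bases appear in both, on opposite strands. For Hspe1 the 250 bases before the start are given (chr1:55087898-55088147, plus strand), and for Hspd1 (chr1:55088053-55088082, minus strand), Dnajb6 (chr5:29735844-29735873, plus strand) and Hsph1 (chr5:149636287-149636316, minus strand) a window of 30 bases.
Hspe1: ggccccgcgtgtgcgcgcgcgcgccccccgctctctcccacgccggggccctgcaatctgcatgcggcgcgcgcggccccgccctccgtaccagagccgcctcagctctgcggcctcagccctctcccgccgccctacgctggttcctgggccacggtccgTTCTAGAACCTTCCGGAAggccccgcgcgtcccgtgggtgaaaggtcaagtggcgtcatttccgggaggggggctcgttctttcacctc
Hspd1: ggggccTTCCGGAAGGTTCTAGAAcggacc
Dnajb6: agctccgaGAATCTTCCGGAAcgctagacc
Hsph1: agtaaaatgctgcagaTTCTGGAAAGTTCt
Of these genes, Hsph1, Hspd1 and Dnajb6 were separated and lower, and Dnajb6 stood at 86.1 and 80.2 CPM in wild type and 77.1 and 72.2 CPM in knockout; its log2 fold change of -0.16 ± 0.20 turned to 0.17 under scaling by total count alone. The cAMP response element TGACGTCA was found for 2 of 22 immediate-early genes (9.09%, Btg2 and Dusp1), 0 of 24 heat shock genes and 2.88% of tested genes with a promoter. Btg2 stood at 617 and 891 CPM in wild type and 536 and 484 CPM in knockout, and Dusp1 at 2023 and 2196 CPM in wild type and 1563 and 1189 CPM in knockout. A match is a description of letters and not a bound site.

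**Figure D5:**
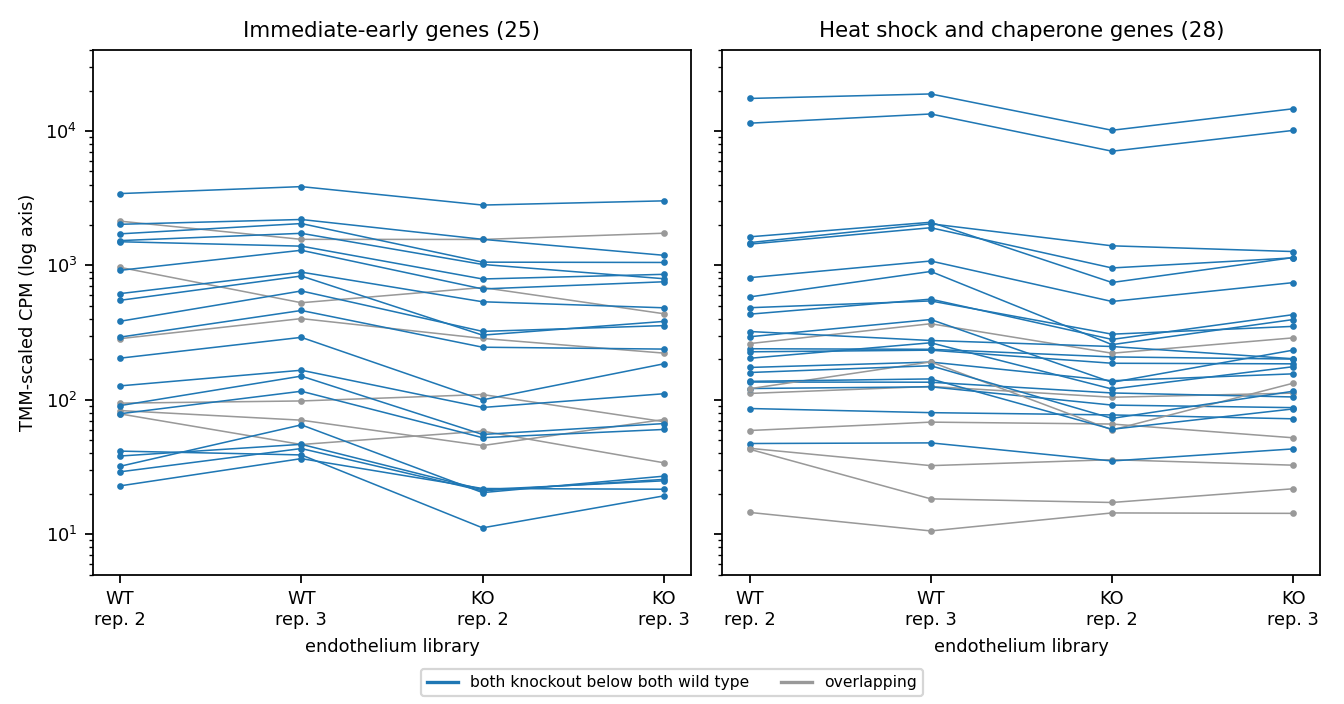
TMM-scaled CPM (log axis) of immediate-early genes and heat shock genes with a mean of at least 5 CPM in the 4 endothelium libraries, where each line joins the values of 1 gene. Blue lines are genes with both knockout libraries below both wild-type ones, as in Hsph1 with 582 and 901 CPM against 257 and 395 CPM, and grey lines are genes whose groups overlap.

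Lipid handling genes (28 tested of 38) held 17 lower and 4 higher members (6 and 7 when scaled by total count alone), with 9 lower and 1 higher at an unadjusted p under 0.05. Over all genes 19.7% were lower, 28.1% at a mean of 5 CPM or more, and 2.88% were lower at an unadjusted p under 0.05. The median log2 fold change was -0.44, or -0.34 without wild-type replicate 3, and -0.11 in the podocyte libraries. The lower members included enzymes of cholesterol synthesis. Sqle, squalene epoxidase, stood at 93.1 and 114 CPM in wild type and 32.4 and 65.1 CPM in knockout, and Hmgcs1, which makes the precursor of mevalonate, at 184 and 205 CPM in wild type and 103 and 146 CPM in knockout. Idi1, an isomerase of the same route, gave 76.7 and 73.5 CPM in wild type and 25.6 and 60.2 CPM in knockout. Insig1, which holds the sterol sensor in the endoplasmic reticulum, gave 55.9 and 66.2 CPM in wild type and 31.3 and 45.8 CPM in knockout. Of fatty acid genes, Fasn stood at 34 and 27.9 CPM in wild type and 21.6 and 15.2 CPM in knockout, and Scd2, a desaturase, at 264 and 248 CPM in wild type and 153 and 186 CPM in knockout. Scd2 was lower in podocytes too, with 729.9 and 652 CPM in wild type and 456 and 398 CPM in knockout. The higher members included genes of uptake, Cd36, given above, and Gpihbp1, the endothelial anchor of lipoprotein lipase, at 143 and 131 CPM in wild type and 280.5 and 183 CPM in knockout.

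Medians of energy metabolism genes depended on which libraries were compared. Nuclear genes of oxidative phosphorylation (61 tested of 87) had a median log2 fold change of -0.64, with 2 lower and 0 higher members. The median was -0.15 without wild-type replicate 3, -0.25 without knockout replicate 2, -0.99 without wild-type replicate 2 and -1.18 without knockout replicate 3. Mitochondrially encoded genes (15), of which none was separated, had a median of -0.73, which was 0.08 without wild-type replicate 3 and -1.48 without knockout replicate 3. Ribosomal protein genes (80) had a median of -0.24, which turned to 0.18 without wild-type replicate 3. Ndufs1, a subunit of complex I, was 1 of the 2 separated members, at 286 and 335 CPM in wild type and 156 and 244 CPM in knockout. Of all genes 19.7% were lower, of those at 20 to 100 CPM in podocytes 30.7%, and of those at 100 CPM or more 46.9%. The median of the last class was -0.27, and scaled by total count alone 7.83% of it was lower. Hypoxia and glycolysis genes (21 tested of 35) held 11 lower and 1 higher members (3 and 3 when scaled by total count alone), with a median of -0.48, or -0.21 without wild-type replicate 3. Bnip3, a mitophagy receptor induced by hypoxia, stood at 174 and 208 CPM in wild type and 90.5 and 151 CPM in knockout. Of 18 oxidative stress genes, 9 were lower and none higher (1 and 3 when scaled by total count alone), with Hmox1, heme oxygenase, at 51.1 and 55.8 CPM in wild type and 29.5 and 44.2 CPM in knockout. Of 23 unfolded protein response genes, 10 were lower and none higher (0 and 6 when scaled by total count alone). Their median was -0.27, as in all genes at 100 CPM or more in podocytes, or -0.16 without wild-type replicate 3. Canx, the chaperone calnexin, stood at 846 and 825 CPM in wild type and 571 and 686 CPM in knockout.

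Cell cycle genes (43 tested of 47) held 17 higher and 3 lower members (25 and 0 when scaled by total count alone), where all genes gave 24.8% and 19.7%. Their median log2 fold change was 0.17, and none had an unadjusted p under 0.05. Top2a, the topoisomerase of dividing cells, stood at 16.4 and 13.4 CPM in wild type and 22 and 23.6 CPM in knockout, and the mitotic kinase Cdk1 at 9.65 and 8.69 CPM in wild type and 13.5 and 16.8 CPM in knockout. Cdk1 was higher in podocytes as well, with 0.778 and 3.05 CPM in wild type and 3.11 and 7.23 CPM in knockout. Without wild-type replicate 3 the median of the list was 0.09.

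Podocyte libraries of the same genotypes gave a comparison that shared no library with the endothelium, but whether same-numbered libraries came from the same animals is not given in the sources used here. Of the genes higher in knockout endothelium, 23.1% were separated and higher in podocytes and 6.82% separated and lower, where 15.1% of all genes were higher there and 16% lower, and where genes under 1 CPM in podocytes gave 22.7% higher and 7.52% lower. Of the genes lower in endothelium, 30.7% were lower in podocytes and 6.63% higher, where genes of 20 to 100 CPM gave 21.7% lower and genes of 100 CPM or more 38.3%. The knockout difference was tested for a difference between the cell types with an interaction term in the same fit. No gene passed an adjusted p of 0.05 in edgeR's quasi-likelihood test, and 428 genes (2.6%) had an unadjusted p under 0.05. Stab1 had an interaction of 1.62 ± 0.38 (log2, SE), Tbxa2r of 1.43 ± 0.37 and Cxcl10 of -1.40 ± 0.40, and none of these passed the adjusted test. For Emcn the interaction was -0.05 ± 0.48. Endothelial markers without Emcn (17 genes) summed to 1446 and 1101 CPM in wild-type podocyte libraries and 986 and 1030 CPM in knockout ones. The part of endothelial RNA in the podocyte values of Emcn, Stab1 and other genes was not tested.

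The genes around Emcn were compared in the same way. Of the 20 nearest tested genes, 10 on each side, 7 were higher and 3 lower, where all genes gave 24.8% and 19.7%, and their median log2 fold change was 0.20. The nearest with a known product, Ddit4l, an inhibitor of mTOR signalling 240 kb away, stood at 203 and 201 CPM in wild type and 215 and 241 CPM in knockout. Cisd2, an iron-sulfur protein of the endoplasmic reticulum, was lower, with 89.4 and 93.4 CPM in wild type and 59.5 and 64.1 CPM in knockout.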

How the data were processed

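Libraries were made with Illumina's TruSeq protocol from sorted kidney cells, per the labels' protocols. Raw read counts for 8 libraries, with 1 line per gene, are what the authors deposited. The submitters' processing notes name mm10 and DESeq2; the aligner, counter, annotation and use of strand are not given in the sources used here, so overlapping and antisense genes cannot be told apart. Of 22533 gene lines, 17326 held all 8 counts; the other 5207 (23.11%) were short and are not analysed here. The short lines left 3 columns with unreadable cells, so their unit was recorded as other, although complete lines of the deposited table hold counts throughout. Positions and promoter sequences are from RefSeq (GRCm38.p6).

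Counts were analysed with edgeR 4.0.16 in R 4.3.3: filterByExpr with the 4 groups (16477 genes), TMM scaling, 1 mean per group over all 8 libraries so that the groups share 1 estimate of the spread, the quasi-likelihood F test, and Benjamini-Hochberg adjustment over all genes tested. The threshold was 0.05. Gaps used CPM plus 0.5. Alternatives were DESeq2 1.42.0, limma 3.58.1 (voom), other scalings and filters, a replicate block and leaving out each library. On simulated counts for 15884 genes, recovery was 15% for 80 genes at a 2-fold change, 78.8% for 80 at 4-fold and 100% for 40 at 8-fold, and 13 of the 128 calls were false. Changed genes were drawn from those with a mean of at least 5 CPM. All other genes had the same mean in the 4 groups, and no replicate or composition difference was built in. With 128 calls, the adjusted threshold was also easier to pass than in the data, so these shares need not hold there.

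The members and gene lists were chosen with earlier results of these data known. Named genes are Emcn, Pecam1, Kdr and Cdh5; the 12 widest gaps in each direction with a mean of at least 5 CPM; for each list up to 3 separated members per direction by fold change and 2 not separated of highest level; marker genes; and neighbours of Emcn. Bag3, Btg2, Cavin2, Dnajb6, Dusp1, Egr1, Fasn, Flt4, Fos, Hmgcs1, Hspa1a, Hspd1, Insig1, Scd2, Sdc4, Socs3, Top2a, Lyve1, Stab2 and Prox1, and the genes called by DESeq2, were named after their values were seen. Some genes that the rule names are not reported here.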

Additional observations from a re-analysis of the deposited data

How the results depend on the processing

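With 2 libraries per group, the edgeR test called Emcn alone, at an adjusted p of 0.05. The call was lost with scaling by total count alone (Emcn log2 fold change -3.11; 0 genes called, 1002 at an unadjusted p under 0.05) and with a mean of at least 5 CPM (-3.27; 0 called, 407 unadjusted). Leaving out 1 library at a time called 0 genes each time, with 323 to 2182 unadjusted and Emcn at -3.49 to -3.38. DESeq2's Wald test called 10 genes. With a replicate block, Emcn stayed at -3.42 (edgeR adjusted p = 0.00316) and was the only gene called, with 1334 unadjusted. The numbers pair the libraries by label alone. Deviations of same-numbered endothelium libraries correlated at 0.188 over only 2 pairs, too few to decide whether replicate number matters. The mitochondrial share rose from replicate 2 to replicate 3 in all 4 groups, in podocytes from 12.2% to 16.9% in wild type and from 12.9% to 22.2% in knockout. No gene was called for the interaction under any alternative run, with 546 unadjusted under the block. Separated genes, 4092 higher and 3245 lower, became 6416 and 726 with scaling by total count alone, 2149 and 1378 with a mean of at least 5 CPM over all 8 libraries, where TMM factors were estimated again from the genes kept, and 827 and 99 with a gap of at least 1.5-fold. Leaving out 1 library gave 5653 to 7481 higher and 5546 to 6197 lower, since a group of 1 library separates more readily. Scaling by total count alone, which moves the median of all genes to 0.33, turned 32 of 223 genes looked at from negative to positive and 0 the other way. Of these, 10 were separated as reported: Itga6 0.15, Pi16 0.13, Ccnd3 0.03, Cdkn1a 0.03, Sox7 0.00, Irf9 0.12, Sphk2 0.01, Smad5 0.07, Gatm 0.09 and Dnajb6 0.17; the last was at 0.00 with a mean of at least 5 CPM. Apart from the stated reason for fewer libraries, the cause was not tested.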

Other observations

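Markers of lymphatic endothelium were looked up after Mmrn1 appeared among the widest gaps, and were chosen after their values were seen. Lyve1, a hyaluronan receptor of lymphatic vessels, stood at 1.29 and 0.217 CPM in wild-type endothelium and at 4.02 and 5.85 CPM in knockout. Stab2, a hyaluronan scavenger receptor, stood at 11.6 and 5.43 CPM in wild type and 15.7 and 17.9 CPM in knockout. Prox1, the transcription factor that defines lymphatic identity, did not follow them, with 7.90 and 8.69 CPM in wild type and 5.29 and 10.7 CPM in knockout, and its groups overlapped. None of the 3 passed the edgeR test after adjustment.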
